A study of Mus musculus with 4 samples.

Results

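Glutamatergic_L2_IT_RSP_ACA, written L2_IT_RSP_ACA below, is the deposited name of a cell type: layer 2 intratelencephalic neurons of the retrosplenial and anterior cingulate cortex. It was followed through 4 sagittal mouse brain sections profiled by spatial transcriptomics, in which RNA is captured on barcoded spots and each spot can hold several cells. For every spot the authors deposited a cluster number and the fraction assigned to each of 67 cell types. A spot was counted as holding L2_IT_RSP_ACA when its deposited fraction was above 0, which was the case for 1415 of 14809 spots.

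All mice were wild-type C57 animals, and each group was 1 section. The resilient and the susceptible mouse had gone through chronic social defeat stress, repeated defeat by an aggressor after which some mice avoid social contact (susceptible) and others do not (resilient), and received saline. The ketamine-treated mouse was a susceptible mouse given 10 mg/kg ketamine intraperitoneally, with the brain taken 7 days later. The control mouse received saline, and the labels do not say how it was handled during the defeat sessions. With 1 section per group there is no test between groups, and differences between mice, slides and cutting planes cannot be told apart from those between groups.

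Intratelencephalic neurons send their axons to other cortical areas and the striatum, on both sides of the brain, and do not reach the brainstem. The retrosplenial cortex is known for its part in spatial memory and navigation, and the anterior cingulate cortex for its part in pain, effort and affective behaviour. Both areas lie next to the midline. In the same areas, pyramidal tract neurons of layer 5 (L5_PT_RSP_ACA) project to subcortical targets, and L3_RSP_ACA and L2_IT_RSPv, the latter named for the ventral retrosplenial area, are the other types whose names refer to these areas.

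The type was most widespread in the ketamine-treated section and least in the resilient section. It was held by 399 of 3733 control spots, 10.7% (exact Clopper-Pearson 95% interval 9.71 to 11.7%). The resilient section had it in 241 of 4156 spots, 5.80% (5.11 to 6.55%). The susceptible section had it in 314 of 3443 spots, 9.12% (8.18 to 10.1%), and the ketamine-treated section in 461 of 3477 spots, 13.3% (12.1 to 14.4%). The intervals of the control and susceptible sections overlapped, and those of every other pair were apart. These intervals cover counting error only, and neighbouring spots are not independent. A lower share can come from fewer cells of the type or from less of its RNA per cell, which cannot be told apart in spots. Among the 67 types it ranked 4th by spots held in the ketamine-treated section, 6th in the susceptible, 7th in the control and 10th in the resilient section. Its part of the summed glutamatergic share was 12.6%, 9.21%, 11.04% and 4.88%, in the same order of sections.

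**Figure D1:**
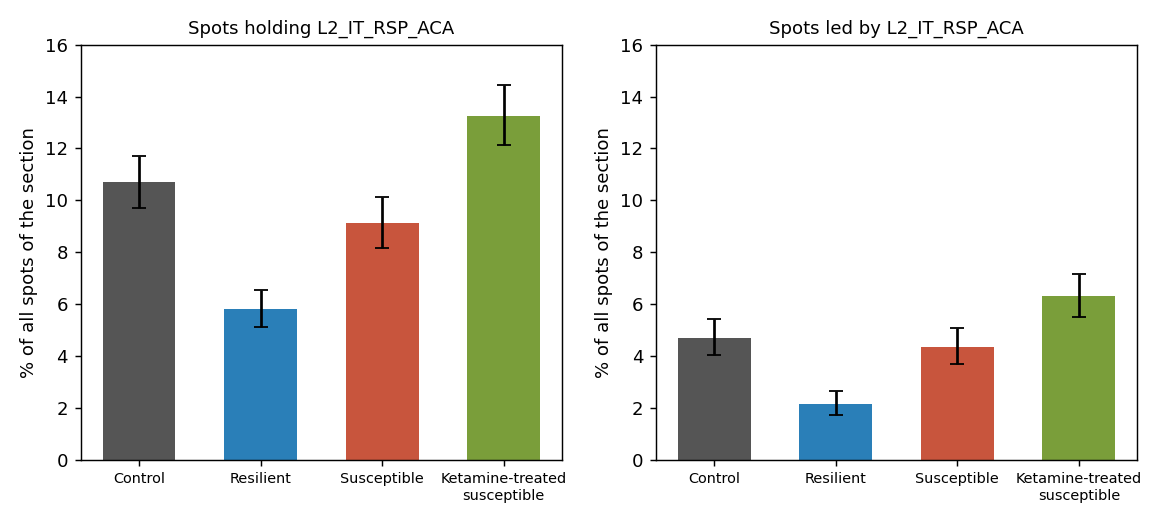
Spots holding L2_IT_RSP_ACA (left) and spots in which it has the highest share of any type (right), in percent of all spots of each of the 4 sections. Bars are single sections and error bars are exact 95% intervals of counting error. In both panels the resilient section is lowest (5.80% and 2.17%) and the ketamine-treated section highest (13.3% and 6.30%).

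Where it was present, L2_IT_RSP_ACA was more often a companion than the leading type of the spot. It had the highest share in 175 of the 399 control spots that held it (43.9%), in 90 of 241 resilient spots (37.3%), in 150 of 314 susceptible spots (47.8%) and in 219 of 461 ketamine-treated spots (47.5%). It was the sole type of 34 holding spots of the susceptible section (10.8%), 38 of the ketamine-treated (8.24%), 21 of the control (5.26%) and 5 of the resilient section (2.07%). The interval for sole occupancy in the susceptible section began at 7.62%, above the end of the resilient interval at 4.77%.

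The deposited share inside a holding spot averaged 41.0 ± 20.3% in the control (SD over 399 spots), 36.3 ± 16.1% in the resilient section (241 spots), 46.0 ± 24.2% in the susceptible section (314 spots) and 43.8 ± 22.9% in the ketamine-treated section (461 spots). The distributions were broad, and they differed among sections less than did the number of holding spots. The medians were 35.5%, 31.8%, 37.6% and 36.7%, and the middle of the distributions, from the lower to the upper quartile, ran from 26.3 to 49.8%, 24.7 to 45.1%, 27.2 to 56.7% and 26.8 to 54.2%. More than 50% of the spot was assigned to the type in 24.6% of control, 18.3% of resilient, 34.1% of susceptible and 29.1% of ketamine-treated holding spots. The smallest shares kept were 14.99%, 14.01%, 14.83% and 14.34%, and no spot lay between 0 and these values. No share kept for any type was under 10.1% of a spot. Whether smaller fractions were set to 0 before deposit is not known. Shares under 20% were found in 27 control, 24 resilient, 13 susceptible and 31 ketamine-treated holding spots.

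**Figure D2:**
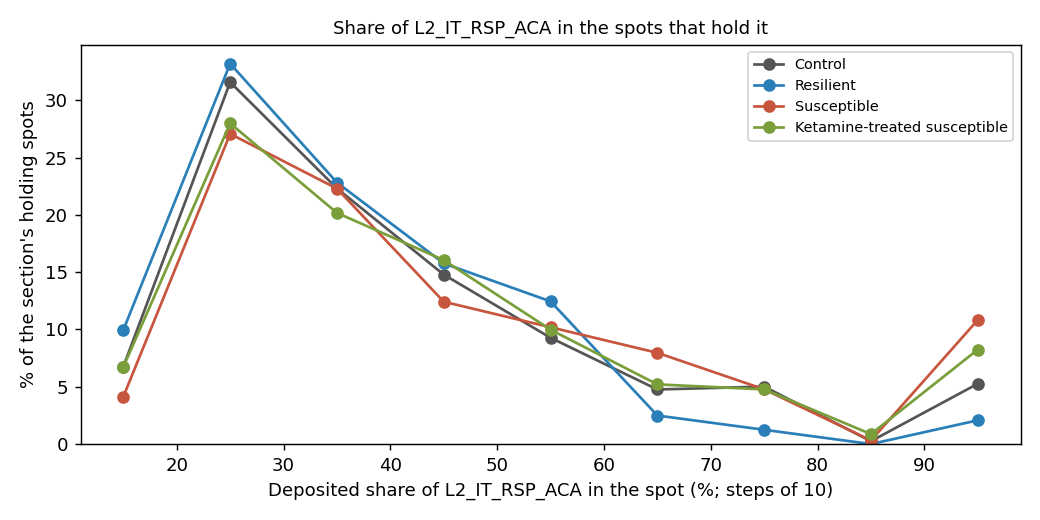
Distribution of the deposited L2_IT_RSP_ACA share within the spots that hold it, in steps of 10 percentage points, as percent of the holding spots of each section. Points stand at the middle of each step, and the last point is made up of the spots assigned wholly to the type (10.8% of the holding spots for susceptible, 8.24% for ketamine-treated, 5.26% for control and 2.07% for resilient). All 4 lines peak between 20 and 30%.

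Spots that held the type were mixed. The mean number of named types was 2.84 in control spots with it and 2.14 in those without it. The corresponding means were 3.04 and 2.26 for the resilient, 2.66 and 2.00 for the susceptible and 2.83 and 2.03 for the ketamine-treated section. A spot that holds more types has more chances to hold any given one, so the share was also read at a fixed number of types. Among spots with 4 types, L2_IT_RSP_ACA was present in 34.6% for the ketamine-treated section, 24.5% for both the control and the susceptible section, and 14.2% for the resilient section. The resilient section was lowest and the ketamine-treated section highest there too. It made up 6.20% of all kept type entries of the ketamine-treated section, 4.82% of the control's, 4.43% of the susceptible and 2.51% of the resilient section's, a measure that takes the number per spot into account.

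The deposited clusters located the type. Clusters 2, 6 and 9 covered 29.6% of control, 29.6% of resilient, 30.4% of susceptible and 32.8% of ketamine-treated spots but held 76.2%, 81.3%, 84.4% and 83.7% of the spots with L2_IT_RSP_ACA. Within these 3 clusters its frequency was 27.5% for the control (24.9 to 30.2%), 15.9% for the resilient (13.9 to 18.1%), 25.3% for the susceptible (22.7 to 28.1%) and 33.8% for the ketamine-treated section (31.1 to 36.7%). In all other clusters together it was 3.62%, 1.54%, 2.05% and 3.21%. The order of the sections within the 3 clusters was the same as over whole sections. This is no separate check, since these clusters hold most of the holding spots.

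Cluster 6 had the highest share of holding spots in every section. Its leading types were L2_IT_RSP_ACA itself, L2_3_IT_CTX, the intratelencephalic neurons of layers 2 and 3 in other cortical areas, and astrocytes. The type was present in 156 of 287 control spots of this cluster, 54.4% (48.4 to 60.2%), and in 99 of 265 resilient spots, 37.4% (31.5 to 43.5%). It was present in 87 of 213 susceptible spots, 40.8% (34.2 to 47.8%), and in 123 of 209 ketamine-treated spots, 58.9% (51.9 to 65.6%). In cluster 6 the control and ketamine-treated sections thus stood above the resilient and susceptible sections, with intervals that did not meet across the 2 pairs.

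The susceptible section differed in another way within cluster 6. Fewer of its spots held the type than in the control, but the mean share where it was held was 61.5%, against 46.1% in the control, 42.7% in the resilient and 50.3% in the ketamine-treated section. It led 73.6% of the holding spots there, against 51.9%, 61.6% and 59.3%. The mean share over all spots of cluster 6 was 25.1% in both the susceptible and the control section, 16.0% in the resilient and 29.6% in the ketamine-treated section.

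Cluster 2 was led by L5_PT_RSP_ACA, with L6_CT_CTX, the corticothalamic neurons of layer 6, and L5_IT_CTX, the intratelencephalic neurons of layer 5, among its leading types. It held L2_IT_RSP_ACA in 119 of 716 control spots, 16.6% (14.0 to 19.6%), in 52 of 766 resilient spots, 6.79% (5.11 to 8.81%), in 161 of 761 susceptible spots, 21.2% (18.3 to 24.2%), and in 169 of 663 ketamine-treated spots, 25.5% (22.2 to 29.0%). The resilient interval lay below the other 3. Cluster 2 took 51.3% of all holding spots in the susceptible section, against 29.8% in the control, 21.6% in the resilient and 36.7% in the ketamine-treated section, while cluster 6 took 27.7% in the susceptible section and 39.1%, 41.1% and 26.7% in those 3. In the susceptible and ketamine-treated sections more holding spots lay in cluster 2 than in cluster 6, and in the control and resilient sections the reverse held. A type named for layer 2 thus had many of its spots in a cluster whose leading types are named for layers 5 and 6. Neither gene counts nor the places of the spots in the tissue were analysed here, and the name was not checked against marker genes or against the layers of the tissue.

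Cluster 9 held the type in 29 of 103 control spots, 28.2% (19.7 to 37.9%), in 45 of 200 resilient spots, 22.5% (16.9 to 28.9%), in 17 of 73 susceptible spots, 23.3% (14.2 to 34.6%), and in 94 of 269 ketamine-treated spots, 34.9% (29.3 to 41.0%). Only the resilient and ketamine-treated intervals were apart. The cluster itself varied in size, and it contributed 18.7% of the holding spots of the resilient and 20.4% of those of the ketamine-treated section, against 7.27% in the control and 5.41% in the susceptible section.

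Outside these clusters, cluster 1 of the control section held the most spots with the type. In cluster 1, led by oligodendrocytes, astrocytes and L2_IT_RSPv, 46 of 929 control spots held the type, 4.95% (3.65 to 6.55%), against 23 of 885 in the resilient section, 2.60% (1.65 to 3.87%), 8 of 605 in the susceptible section, 1.32% (0.573 to 2.59%), and 10 of 501 in the ketamine-treated section, 2.00% (0.961 to 3.64%). The control interval was apart from those of the susceptible and ketamine-treated sections and overlapped the resilient one. These spots were 11.5% of all holding spots in the control and 9.54%, 2.55% and 2.17% in the others. Cluster 5 held the type in 20 of 465 control, 7 of 239 susceptible and 21 of 293 ketamine-treated spots, and where held its share averaged 60.3%, 48.3% and 58.0%. That cluster had 2 spots in the resilient section, neither with the type. In cluster 14, 11 of 95 ketamine-treated, 5 of 67 susceptible and 2 of 72 resilient spots held it, with overlapping intervals, and the control had 4 spots there, none with the type.

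**Figure D3:**
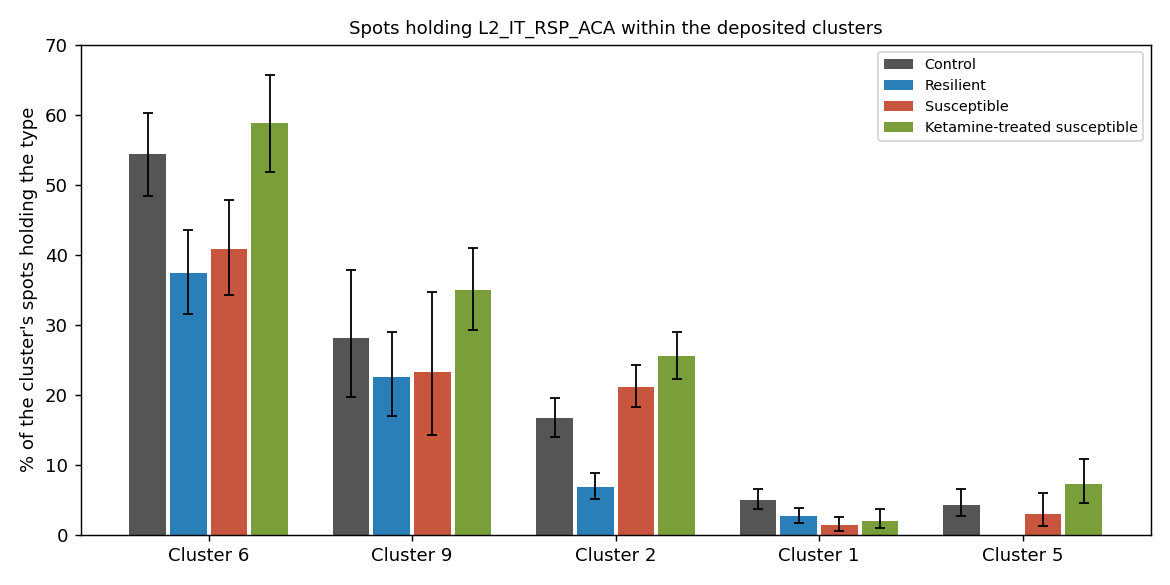
Percent of the spots of each cluster that hold L2_IT_RSP_ACA, for clusters 6, 9, 2, 1 and 5 in the 4 sections, with exact 95% intervals of counting error. Cluster 5 has no resilient bar, since that section had 2 spots in it, neither with the type. In cluster 6 the control (54.4%) and ketamine-treated (58.9%) bars stand above the resilient (37.4%) and susceptible (40.8%) bars, while in cluster 2 the resilient bar (6.79%) stands below the others.

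Across the 17 clusters, each averaged over the sections with at least 20 spots in it, the profile most like that of L2_IT_RSP_ACA by rank was that of L2_3_IT_CTX (Spearman 0.91, Pearson 0.90). L6_IT_CTX (0.75 and 0.30), L6_Car3 (0.68 and 0.21), L5_IT_CTX (0.66 and 0.78) and L5_6_IT_CTX (0.65 and 0.98) followed. The list depended on the measure. By Pearson L5_6_IT_CTX came first, then L4_5_IT_CTX (0.93) and L2_3_IT_TPE (0.91), with L2_3_IT_CTX 4th. L6_IT_CTX and L6_Car3 ranked 19th and 22nd by Pearson. The points are clusters of the same sections and the shares of a spot sum to 1, so these values are descriptions. Some of these types were rare. On average over sections, L6_Car3 was in at most 1.05% and L5_6_IT_CTX in at most 1.28% of the spots of any cluster. L6_Car3 shared 0 spots with L2_IT_RSP_ACA. Clusters 5 and 14 rested on 3 sections, cluster 16 on 2 and cluster 17 on 1. The other types named for the same areas lay elsewhere in part. L5_PT_RSP_ACA had 69.0% of its control, 55.6% of its resilient, 73.9% of its susceptible and 77.8% of its ketamine-treated spots in clusters 2, 6 and 9, whereas L2_IT_RSPv had 10.8%, 4.69%, 6.28% and 10.8% of its spots there.

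The comparisons between sections share sections, so they are not independent of each other. Each ratio is given with the range obtained by dividing the interval bounds of the 2 sections crosswise. Each difference was also split by cluster into a part from different shares within clusters and a part from different cluster proportions (the makeup part), with clusters under 20 spots in either section counted in the latter. As background, a type was counted as past the fold where its ratio was at least 1.5 in either direction, among types in at least 1% of the spots of either section.

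Susceptible against resilient sections ask what differs between mice of unlike outcome after the same stress. L2_IT_RSP_ACA was 1.57 times as frequent in the susceptible section (range 1.25 to 1.98), and 14 of 36 types, 38.9%, were past the fold in this comparison. In the higher direction 5 of 36 types were, 13.9%, and L2_IT_RSP_ACA had the 5th highest ratio. Of the difference of 3.32 percentage points, 3.34 lay within clusters and −0.0220 in the makeup. It was higher in the susceptible section in 9 of 14 compared clusters, lower in 3 and equal in 2. Only cluster 2 had intervals apart, at 21.2% against 6.79%.

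The resilient section was also below the control. The control had 10.7% and the resilient section 5.80%, a ratio of 0.543 (range 0.436 to 0.675), with 14 of 35 types, 40.0%, past the fold in either direction and 4 of 35, 11.4%, in the lower direction. L2_IT_RSP_ACA had the 4th lowest ratio of the 35. Within clusters the share fell by 4.20 points, and through the makeup it fell by 0.689. The type was less frequent in the resilient section in 11 of 13 clusters and more frequent in 2, with intervals apart in clusters 2 and 6.

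The susceptible and control sections had overlapping intervals for the overall share. The ratio was 0.853 (range 0.698 to 1.04), with 12 of 31 types, 38.7%, past the fold. L2_IT_RSP_ACA had the 9th lowest ratio of the 31. The similar totals covered unlike clusters. The share of holding spots was 13.5 points lower in cluster 6 of the susceptible section (40.8% against 54.4%) and lower in cluster 1 (1.32% against 4.95%), both with intervals apart, while in cluster 2 it was 4.54 points higher (21.2% against 16.6%) with intervals that overlapped. It was higher in 4 of 14 clusters, lower in 9 and equal in 1.

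Ketamine-treated and susceptible sections address what differed in a susceptible mouse after ketamine. L2_IT_RSP_ACA was 1.45 times as frequent in the ketamine-treated section (range 1.20 to 1.76), which is below the fold of 1.5. In this comparison 6 of 31 types, 19.4%, were past the fold, 2 of them higher (6.45%), and L2_IT_RSP_ACA had the 4th highest ratio. Of the 4.14 points of difference, 3.22 lay within clusters and 0.920 in the makeup. The type was more frequent in 9 of 16 clusters, less frequent in 5 and equal in 2, and cluster 6 alone had intervals apart (58.9% against 40.8%).

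The ketamine-treated section also stood above the control, by 1.24 times (range 1.04 to 1.49), with 7 of 29 types, 24.1%, past the fold. This ratio is below the fold of 1.5, and L2_IT_RSP_ACA had the 10th highest of the 29. The section differed from the control in both directions by cluster, at 25.5% against 16.6% in cluster 2 and 2.00% against 4.95% in cluster 1, each with intervals apart. In cluster 6 the intervals of these 2 sections overlapped (58.9% and 54.4%). The widest gap of the 6 pairs was between the ketamine-treated and resilient sections, a ratio of 2.29 (range 1.85 to 2.83), with 13 of 35 types, 37.1%, past the fold and 5, 14.3%, in the higher direction. L2_IT_RSP_ACA had the 3rd highest ratio there, was higher in 10 of 14 clusters, lower in 2 and equal in 2, and had intervals apart in clusters 2, 6 and 9.

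The remainder of a holding spot was mostly other neurons and astrocytes. Other glutamatergic types made up 33.7% of the content of holding spots of the control, 41.6% of the resilient, 31.7% of the susceptible and 33.9% of the ketamine-treated section. Astrocytes, which support neurons and take up transmitter, made up 13.3%, 10.8%, 11.7% and 13.1%, and GABAergic neurons 3.95%, 4.32%, 5.98% and 4.05%. The oligodendrocyte lineage, which makes myelin, was scarce beside the type, at 6.80%, 5.32%, 2.99% and 3.47%, against 24.4%, 17.1%, 15.5% and 14.5% in all spots without it. Astrocytes (22.4%, 21.8%, 22.1% and 24.0%) and GABAergic neurons (8.85%, 11.9%, 10.3% and 9.90%) also had higher shares in the spots without it. Other glutamatergic types had 35.5%, 41.0%, 42.4% and 41.3% there. The shares of a spot sum to 1, so the type leaves less room for other classes where it is held. Counted as type entries other than L2_IT_RSP_ACA, oligodendrocytes were about as frequent as in other spots of the same clusters. They had 166 entries in holding spots where 163 were expected. The count is of entries, and a comparison over spots reads lower, since a holding spot has 1 entry fewer for other types.

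Astrocytes were the most frequent single partner, present in 40.9% of control, 33.6% of resilient, 36.0% of susceptible and 42.5% of ketamine-treated holding spots, and all 4 intervals overlapped. L4_5_IT_TPE_ENT, intratelencephalic neurons named for temporal, perirhinal and entorhinal cortex, came next in the mean over sections, at 27.8%, 30.7%, 20.1% and 21.3%. It was second in the control only: L5_IT_CTX was ahead of it in the resilient section, and L5_PT_RSP_ACA in the susceptible and ketamine-treated sections. The parvalbumin interneurons (Pvalb), fast-spiking inhibitory cells, were present in 8.77%, 9.13%, 16.6% and 12.6%. Oligodendrocytes were present in 17.3%, 12.0%, 7.64% and 9.54%.

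The plain shares of L5_PT_RSP_ACA and L2_3_IT_CTX among the holding spots divided the sections into pairs. L5_PT_RSP_ACA shared 17.0% of the control spots holding the type (13.5 to 21.1%) and 14.9% of the resilient ones (10.7 to 20.1%). It shared 32.5% of those in the susceptible section (27.3 to 38.0%) and 30.6% in the ketamine-treated section (26.4 to 35.0%). L2_3_IT_CTX went the other way, at 18.3% (14.6 to 22.4%) and 24.1% (18.8 to 30.0%) in the control and resilient sections and 7.64% (4.96 to 11.2%) and 10.2% (7.59 to 13.3%) in the susceptible and ketamine-treated sections. For both partners the control and resilient intervals lay apart from those of the susceptible and ketamine-treated sections. L5_IT_CTX was most frequent in the resilient section, at 33.2% (27.3 to 39.5%), against 19.5% for the control and for the ketamine-treated section and 14.3% for the susceptible section.

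**Figure D4:**
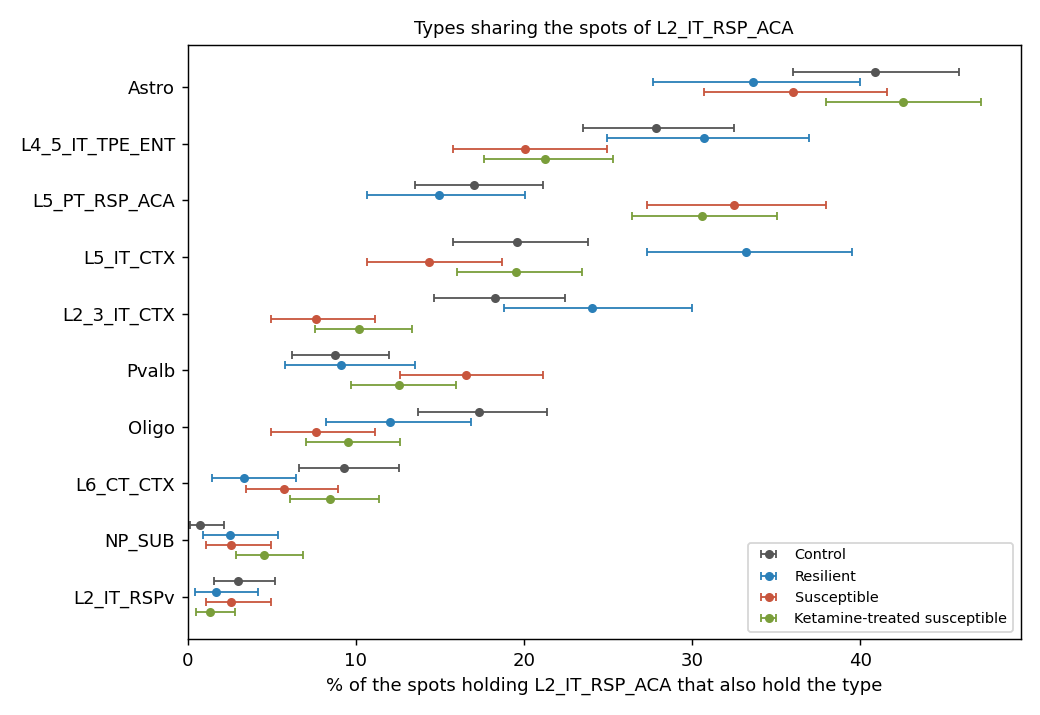
Percent of the spots holding L2_IT_RSP_ACA that also hold each of 10 partner types, by section, with exact 95% intervals of counting error. L5_PT_RSP_ACA lies at 32.5% and 30.6% in the susceptible and ketamine-treated sections and at 17.0% and 14.9% in the control and resilient sections, and L2_3_IT_CTX shows the reverse order.

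Because the clusters differ in their contents, partners were also set against the other spots of the same clusters. Each kept type entry of a spot is called a place here, and the share of places taken by a partner in holding spots was divided by its share of places in the other spots of those clusters. L5_PT_RSP_ACA had a ratio of 1.14 for the control, 0.671 for the resilient, 1.36 for the susceptible and 1.19 for the ketamine-treated section. L2_3_IT_CTX had 1.25, 1.76, 0.626 and 0.641, and L5_IT_CTX 1.08, 2.05, 0.849 and 1.18. The same ratio taken over spots instead of places was lower, since a holding spot has 1 place fewer for other types. It was 0.959, 0.588, 1.14 and 1.00 for L5_PT_RSP_ACA and 0.904, 1.40, 0.393 and 0.492 for L2_3_IT_CTX. The control values thus lay above 1 by places and below 1 by spots, while the order of the sections was the same by both measures. Matched by cluster, L5_PT_RSP_ACA in the ketamine-treated over the control section had a ratio of 1.04, against 1.79 for the plain shares, and in the susceptible over the control section 1.20 against 1.91. For L2_3_IT_CTX the matched ratios were 0.512 and 0.501, against 0.557 and 0.418.

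Among 18 partner types frequent enough for this ratio, 2 were above 1 in all 4 sections and 5 below 1 in all 4. The 2 above were Pvalb, with a mean ratio over sections of 1.85 (1.51 to 2.17), and L4_5_IT_TPE_ENT, at 1.39 (1.12 to 1.73). Pvalb took 167 places where 89.4 were expected from the places of the other spots of the same clusters. L4_5_IT_TPE_ENT took 346 places where 251 were expected. The expected numbers are of places, not of spots. Taken over spots, Pvalb was above 1 in every section (1.32, 1.37, 1.74 and 1.84), but L4_5_IT_TPE_ENT only in the control and resilient sections (1.35, 1.19, 0.969 and 0.906). Pvalb varied by cluster. In cluster 9 it was in 0 of 29 control, 1 of 45 resilient and 0 of 17 susceptible holding spots. The other spots there had it in 8.11%, 8.39% and 16.1%. The ketamine-treated section had it in 17.0% of holding and 12% of other spots of cluster 9. In cluster 1 it was in a larger share of holding than of other spots in every section, for the control 37.0% against 20.5%. Astrocytes had a mean ratio of 1.23, L5_IT_CTX of 1.25 and NP_SUB, near-projecting neurons named for the subiculum, of 1.20, none of them above 1 in every section. VLMC, the vascular and leptomeningeal cells of the brain surface, had 0.345, L5_IT_TPE_ENT 0.422, L2_IT_RSPv 0.439 and microglia 0.533. L6b_CTX, neurons of the deepest cortical layer, had the lowest mean ratio, 0.128, with 7 places where 56.8 were expected. Of the other 66 types, 54 shared at least 1 spot with L2_IT_RSP_ACA and 12 shared none.

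Other types with RSP or an upper layer in their names met it to different extents. L2_IT_RSPv was held by 502, 426, 446 and 452 spots of the control, resilient, susceptible and ketamine-treated sections, of which 12, 4, 8 and 6 also held L2_IT_RSP_ACA. L3_RSP_ACA shared 2, 0, 5 and 5 spots. The 0 of 241 in the resilient section was read against 3 spots (1.24%), and its exact interval ends at 1.52%. L2_3_IT_TPE shared 5 of its 16 control, 13 of its 47 resilient, 0 of its 12 susceptible and 1 of its 12 ketamine-treated spots. The 0 of 314 susceptible holding spots was likewise read against 3 spots (0.955%), and its exact interval ends at 1.17%. L2_IT_RSP_ACA was present in 46.8% of the L2_3_IT_CTX spots of the control, 43.0% of those of the resilient, 33.6% of the ketamine-treated and 17.6% of the susceptible section.

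In cluster 6 the extent to which L2_IT_RSP_ACA and L2_3_IT_CTX shared spots differed by section. L2_3_IT_CTX was present in 44.9% of the control, 41.5% of the resilient, 49.3% of the susceptible and 49.8% of the ketamine-treated spots of this cluster. Of the spots holding either type, both were present in 63 of 222 in the control, 28.4% (22.5 to 34.8%), in 46 of 163 in the resilient section, 28.2% (21.5 to 35.8%), in 20 of 172 in the susceptible section, 11.6% (7.25 to 17.4%), and in 42 of 185 in the ketamine-treated section, 22.7% (16.9 to 29.4%). The susceptible interval lay below those of the control and resilient sections and overlapped that of the ketamine-treated section. In the susceptible section L2_3_IT_CTX was present in 23.0% of the holding spots of cluster 6 and in 67.5% of its other spots. The ketamine-treated section had 34.1% and 72.1%, and the control 40.4% and 50.4%. In the resilient section the direction was opposite, at 46.5% of holding and 38.6% of other spots.

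Cluster 2 gave the corresponding picture with L5_PT_RSP_ACA. Of the spots holding either type, both were present in 12.4% in the control (9.20 to 16.1%), 4.40% in the resilient (2.71 to 6.71%), 20.8% in the susceptible (17.1 to 24.9%) and 22.1% in the ketamine-treated section (18.2 to 26.4%). L5_PT_RSP_ACA itself was present in 41.8%, 55.2%, 48.4% and 51.1% of the spots of this cluster. The joint share counts spots with either type, and the resilient section had few holding spots there (52 of 766). Among the holding spots of cluster 2, L5_PT_RSP_ACA was present in 38.7% for the control, 38.5% for the resilient, 56.5% for the susceptible and 54.4% for the ketamine-treated section, against 42.4%, 56.4%, 46.2% and 50% of the other spots. Within cluster 2, Pvalb was present in 26.1% of holding and 15.5% of other spots in the susceptible section, in 20.1% and 10.7% in the ketamine-treated section, in 11.5% and 7.56% in the resilient section, and in 10.1% and 10.6% in the control.

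**Figure D5:**
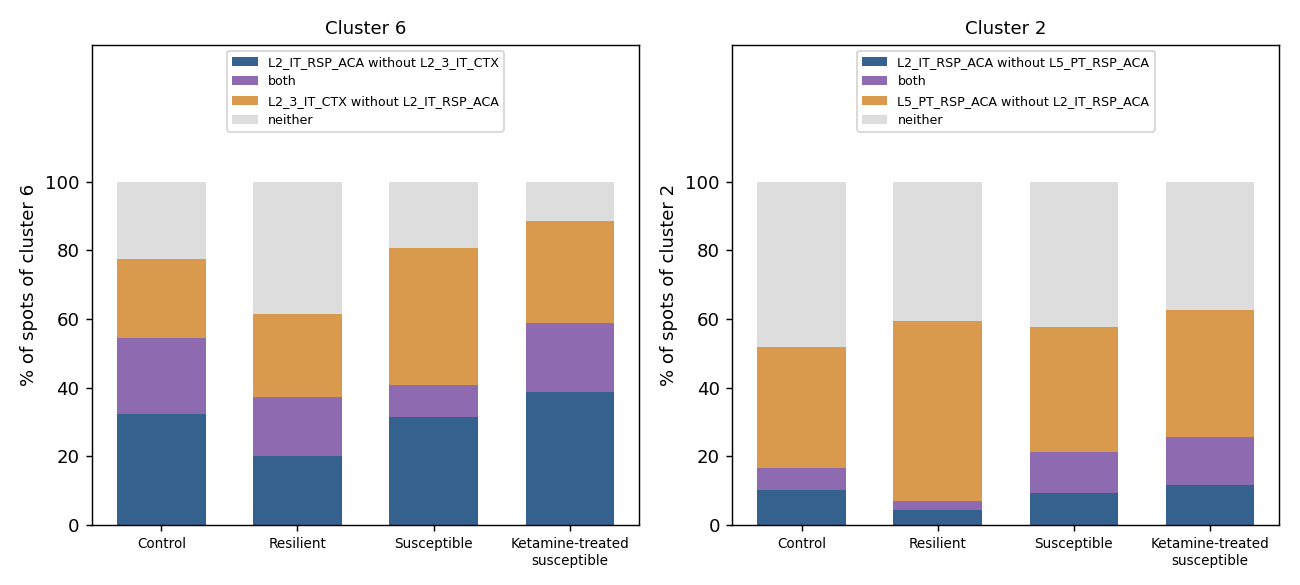
Spots of cluster 6 divided by the presence of L2_IT_RSP_ACA and L2_3_IT_CTX (left) and spots of cluster 2 divided by the presence of L2_IT_RSP_ACA and L5_PT_RSP_ACA (right), as percent of the spots of that cluster in each section. In cluster 6 the spots with both types are fewest in the susceptible section (20 spots), and in cluster 2 the resilient section has the lowest share of spots with both (4.40% of the spots with either type).

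When L2_IT_RSP_ACA was held but did not lead, the leading type differed by section. Astrocytes led 52 of 224 such spots in the control and 49 of 242 in the ketamine-treated section. L5_PT_RSP_ACA led most in the susceptible section, 38 of 164 spots (23.2%). In the resilient section L2_3_IT_CTX, L5_IT_CTX and astrocytes each led 26 of 151. The commonest single combination was the type with astrocytes only, in 36 control spots (9.02% of holding spots), 35 susceptible spots (11.1%) and 57 ketamine-treated spots (12.4%), whereas in the resilient section it was the type with L2_3_IT_CTX only, in 15 spots (6.22%).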

How the data were processed

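Per the labels, 1 sagittal section from each of 4 groups was profiled, and the submitters' processing notes name the genome build mm10. The authors deposited a fraction per spot for 67 types and unknown, summing to 1, with a cluster number. The sources used here name no deconvolution or clustering method. No fraction above 0 was under 10.1% of a spot. Cluster numbers were taken as 1 clustering of all sections. Sequencing depth is unknown, and gene counts, positions and t-SNE coordinates were not analysed here. The sections shared no full barcode (2735 to 3304 barcode sequences recurred between pairs of sections, none with identical mixed fractions).

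Shares have exact Clopper-Pearson 95% intervals (SciPy 1.17.1, pandas 2.3.3), for counting error only. A count of 0 was read against 3 spots. No p-value was computed. Cluster splits and matched places were tested on simulated data. The type, the partner lists and the settings were chosen with earlier results of these data known. Named types were those with RSP, ACA, L2_IT or L2_3_IT in their names, the 10 most frequent partners, and Oligo, Astro, VLMC and Micro. Also named were the 5 highest and 5 lowest matched partners, and the 5 most alike cluster profiles by Spearman, with Pearson as a check.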

Additional observations from a re-analysis of the deposited data

Results flagged for a closer look

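The difference between the susceptible and control sections ran in opposite directions in the clusters that held most of L2_IT_RSP_ACA. The share of holding spots, susceptible minus control, was 4.54 percentage points in cluster 2, −13.5 points in cluster 6 and −4.87 points in cluster 9. Each value compares 1 section with 1 section, and the difference was not tested. The exact intervals of the 2 sections were apart in cluster 6 and overlapped in clusters 2 and 9.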

How the results depend on the processing

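No paired analysis was possible because each group was 1 section. Cluster weights were also made common to all sections, as the mean cluster proportion over sections, for clusters of at least 20 spots in each. With these weights each section share and ratio stayed inside its interval or range as first given. The same held with holding taken as at least 15% or 20% of the spot, and without unknown spots or cluster 5. The 15% setting could change little, since the smallest kept shares of the type were 14.01% to 14.99%. With it the control share went from 10.69% to 10.66% and the ketamine-treated share from 13.26% to 13.23%. Without cluster 9 the ratios also stayed inside, but the section shares were 4.95% for the resilient and 11.4% for the ketamine-treated section, below their intervals. Leaving out clusters, and using clusters 2, 6 and 9 alone, were chosen after seeing the data. Such common weights over clusters of at least 50 spots gave 6.60% for the resilient and 10.3% for the susceptible section. The susceptible over resilient ratio was 1.99 by mean share and 2.01 by spots led, and the ketamine-treated over resilient ratio was 2.91 by spots led. Within holding spots, medians were 35.5%, 31.8%, 37.6% and 36.7%, and means in the leading cluster alone were 46.1% and 42.7% (cluster 6, control and resilient) and 39.5% and 37.4% (cluster 2, susceptible and ketamine-treated). At a fold of 2 the types past it numbered 4 of 31 for susceptible over control, 8 of 35 for resilient over control and 3 of 29 for ketamine-treated over control. They numbered 7 of 36 for susceptible over resilient, 0 of 31 for ketamine-treated over susceptible and 8 of 35 for ketamine-treated over resilient. Among types in at least 2% of spots, at the fold of 1.5, they numbered 8 for susceptible over control, 8 for resilient over control and 5 for ketamine-treated over control. They numbered 7 for susceptible over resilient, 2 for ketamine-treated over susceptible and 7 for ketamine-treated over resilient. The 2% minimum leaves fewer types to compare, so a lower count there need not mean a smaller share of types. Of 5 partners over all 6 pairs, these ratios moved out of range or changed side when places were matched by cluster. L5_PT_RSP_ACA went from 1.91 to 1.20 (susceptible over control) and from 1.79 to 1.04 (ketamine-treated over control). Oligodendrocytes went from 0.442 to 0.922 and from 0.552 to 0.925 in the same pairs. Astrocytes went from 0.881 to 1.39 and from 1.04 to 1.39 in the same pairs, from 1.07 to 1.52 (susceptible over resilient) and from 1.18 to 0.999 (ketamine-treated over susceptible). L5_IT_CTX, ketamine-treated over control, was 0.999 and became 1.02 for partners of at least 20% of the spot, 1.003 by places and 1.10 matched. The cause was not tested. The number of spots limits small clusters most, and with 1 section per group no setting measures the spread between mice.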

Other observations

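In cluster 9 the companions of L2_IT_RSP_ACA were unlike between sections. L5_PT_RSP_ACA was present in 42 of the 94 ketamine-treated holding spots of this cluster (44.7%) and in 5 of 45 resilient spots (11.1%). It was present in 3 of 29 control spots (10.3%) and in 4 of 17 susceptible spots (23.5%). Among the other spots of cluster 9 it was present in 43.4%, 39.4%, 35.1% and 41.1%, in the same order of sections. The ketamine-treated share was thus near that of its other spots, and the rest were lower. In the resilient section L4_5_IT_TPE_ENT was present in 24 of 45 (53.3%) and L5_IT_CTX in 22 of 45 (48.9%), against 29.7% and 25.8% of its other spots. L2_3_IT_CTX was present in 9 of 29 control spots (31.0%) and in 10 of 45 resilient spots (22.2%), against 4.05% and 7.10% of the other spots. The counts are small, and no comparison was tested.

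NP_SUB, near-projecting neurons named for the subiculum, shared 21 holding spots in the ketamine-treated section (4.56%), against 3 in the control (0.752%), 6 in the resilient (2.49%) and 8 in the susceptible section (2.55%). Its ratio of places to the other spots of the same clusters was 1.97 in the ketamine-treated section and 0.454, 1.16 and 1.02 in the other 3.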
